A study of Mus musculus with 20 samples.

Results

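Star strands are the second, usually less abundant products of miRNA hairpins, and their levels were followed in the left ventricle after transverse aortic banding (TAB). The members were the probes with a single mouse name that ends in an asterisk and carries a number below 1000. Hairpins numbered 21, 24, 30, 144, 199, 214, 297, 378, 466, 467, and 669 were left out. Of 249 such probes, 194 had at least 1 spot without a negative flag and were kept among 928 mouse probes tested. Every kept star strand had an unstarred probe of the same hairpin on the array, but for 21 of them that probe had only negative flags. The other 173 star strands were compared with 158 unstarred probes, and 29 of them shared 14 of these probes because copies of a hairpin release the same unstarred strand. The 55 dropped star strands were not analysed, miR-208b* and miR-223* among them.

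All mice were male C57BL/6J, 8 weeks old at surgery. TAB narrows the aorta and loads the left ventricle with pressure, and the sham group had surgery without the band. Hearts were taken on days 3, 5, 7, 14, and 28, and each surgery and day was measured on 2 arrays. The methods call these technical replicates, and the labels do not give the number of hearts behind an array. The TAB arrays of day 14 have a different day in their condition label, and the day of the title was used.

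A miRNA gene is transcribed as a longer RNA that folds into a hairpin, and the enzymes Drosha and Dicer cut out a short duplex. One strand of the duplex enters an Argonaute protein and guides it to target mRNAs through its seed, bases 2 to 8. The other strand is mostly degraded, and in the naming of these arrays it carries the asterisk. Current names give the arm instead, 5p or 3p. Both strands of a hairpin come from the same precursor, so their steady levels can differ through strand choice and stability even though their synthesis is shared. Some unstarred strands come from copies on different chromosomes, among them miR-16, miR-26a, miR-29b, miR-103, and miR-194. Their probe reads all copies and the star probe a single copy, so a change of another copy would also move the gap. The part of other copies was not tested. In the heart, miR-1, miR-133, miR-208, and miR-499 hairpins are known for their muscle origin, and miR-21, miR-29, and miR-199 hairpins for their part in hypertrophy and fibrosis.

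The results turned on a few hairpins, whose strands are shown from RefSeq (mouse build GRCm38.p6) with the seed in capitals. Mature sequences were matched for 106 star strands, 34 through a copy number in the RefSeq name and 72 through their known arm. The first set holds hairpins whose star strand fell while the unstarred strand rose.
miR-351* (3p arm, chromosome X): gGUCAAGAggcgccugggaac
miR-351: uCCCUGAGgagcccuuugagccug
miR-193b* (5p arm, chromosome 16): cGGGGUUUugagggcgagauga
miR-193b: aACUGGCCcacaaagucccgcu
miR-204* (3p arm, chromosome 19): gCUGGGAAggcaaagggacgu
miR-204: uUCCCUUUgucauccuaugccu
miR-99b* (3p arm, chromosome 17): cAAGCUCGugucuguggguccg
miR-99b: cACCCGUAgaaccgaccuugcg
The next set holds the raised star strands miR-140*, miR-22*, miR-499*, and miR-17*.
miR-140* (3p arm, chromosome 8): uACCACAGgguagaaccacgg
miR-22* (5p arm, chromosome 11): aGUUCUUCaguggcaagcuuua
miR-22: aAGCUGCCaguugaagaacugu
miR-499* (3p arm, chromosome 2): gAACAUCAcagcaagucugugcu
miR-499: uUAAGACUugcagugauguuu
miR-17* (3p arm, chromosome 14): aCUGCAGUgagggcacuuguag
miR-17: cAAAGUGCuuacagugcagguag
The last set holds star strands that share a seed. The 106 matched star strands had 92 distinct seeds, and 26 of them fell into 12 groups with a seed in common.
miR-7b*: cAACAAGUcacagccagccuca
miR-7a-2*: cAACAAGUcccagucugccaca
miR-26b*: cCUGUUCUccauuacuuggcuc
miR-26a-2*: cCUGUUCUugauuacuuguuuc
let-7b*: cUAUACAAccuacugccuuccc
let-7f-1*: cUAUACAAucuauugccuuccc
miR-98*: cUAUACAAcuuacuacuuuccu

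Many star strands lay near the background of the array. A strand counts here as found by an array if no more than 1 of the 3 spots carried a negative flag. By this count 49 star strands were found on all 20 arrays, 99 on some and 46 on none. Of their 158 unstarred probes, 92 were found on all 20 arrays and 14 on none. The median raw intensity of the star strands was 87 to 100 on sham arrays and 77 to 91 on TAB arrays, against 65 to 74 for empty spots. Intensities this close to the empty spots compress differences on the log2 scale, also in the comparison with a brighter partner. The label of the kit binds guanine, and the matched star strands found on all arrays held a median of 8 guanines, against 5 for those found on some arrays and 4 for those found on none (n = 34, 51, and 21). The part of base composition in the TAB results was not tested.

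**Figure D1:**
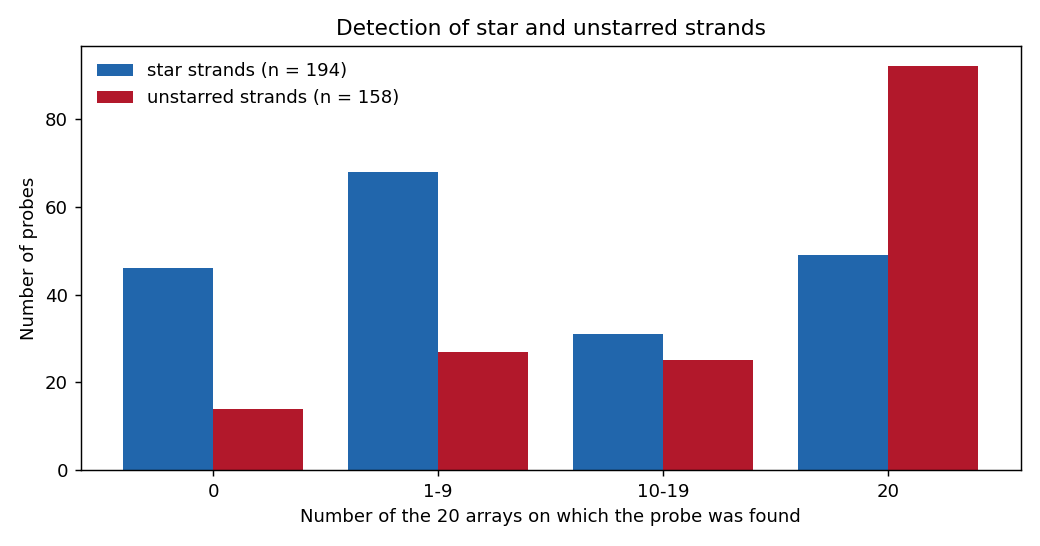
Number of probes (vertical axis) by the number of the 20 arrays on which they were found (horizontal axis), for star strands (blue) and the unstarred strands of the same hairpins (red). The star strands spread over all classes, with 46 found on no array and 49 on all 20, whereas 92 of 158 unstarred strands were found on all 20.

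TAB arrays were dimmer than sham arrays, with a 75th percentile of raw intensity of 180 to 288 against 303 to 444, and this sets how a single strand can be read. After quantile normalization over the 20 arrays, all levels here are log2 intensity relative to a shared distribution. A sample is the average of the 2 arrays of a surgery and day, and single arrays can overlap where samples do not. Other scalings shift all probes: the median TAB minus sham difference of all 928 probes was -0.02 with quantile normalization, 0.40 with scaling to the 75th percentile, and -0.25 without scaling. The comparison of a star strand with its own unstarred strand does not move with a constant shift, and it is given first. Quantile normalization also moves bright and dim probes relative to each other, so the size of this gap can differ between scalings. Over the star strands alone, TAB and sham arrays were set apart by the first principal component (45.3% of the variance), with 1 sham day 14 array at -0.56 against -2.01 to -1.33 for the sham arrays of other days. Heart muscle miRNAs were found on all 20 arrays (7 of 7), as were 5 of 7 white blood cell miRNAs, 4 of 4 vessel miRNAs and the red blood cell miR-451, while none of 14 miRNAs of brain, liver, epithelium, and pancreas were (miR-122 of liver was found on 10 sham and 3 TAB arrays). The mean level of the white blood cell miRNAs was 7.41 to 7.74 in the TAB samples and 6.91 to 7.32 in the sham samples, and that of miR-451 was 7.74 to 8.61 against 6.87 to 7.53. Their part in the star strand results was not tested, and on tissue RNA a change in cell number and a change in RNA per cell cannot be told apart.

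The star strand fell against the unstarred strand in 69 of 173 hairpins (39.9%) and rose against it in 10 (5.78%), by limma with day as a block and Benjamini-Hochberg adjustment. Over all 232 starred probes with a partner, which include these, 34.5% fell and 9.48% rose. The median star minus unstarred change was -0.19 among the 173, compared with 0.00 among the 59 pairs of other numbers and families, where 11 fell and 12 rose. This difference between the sets was not tested. Of the 69 falls, 61 had an unstarred strand that rose by itself, 15 a star strand that fell, and 11 both. MiR-328*, miR-365-1*, miR-500*, and miR-744*, named after their values were seen, fell against partners with neither strand past the threshold. With both strands found on all 20 arrays, 13 of 33 hairpins fell and 2 rose (miR-22* and miR-483*), and the median change was -0.41. Among the 69 falls, 65 kept a negative sign under each of 4 other scalings, and all 10 rises kept a positive sign. Only 42 to 43 of these falls and 7 of the rises were still called in each. These scalings are not separate checks, because the gap is the same at the 75th percentile and without scaling by construction. The processed table gave nearly the same counts (14 rises and 53 falls, against 14 and 54). In 14 of the falls and 1 of the rises the star strand was found on no array, so that the gap there follows the unstarred strand alone.

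**Figure D2:**
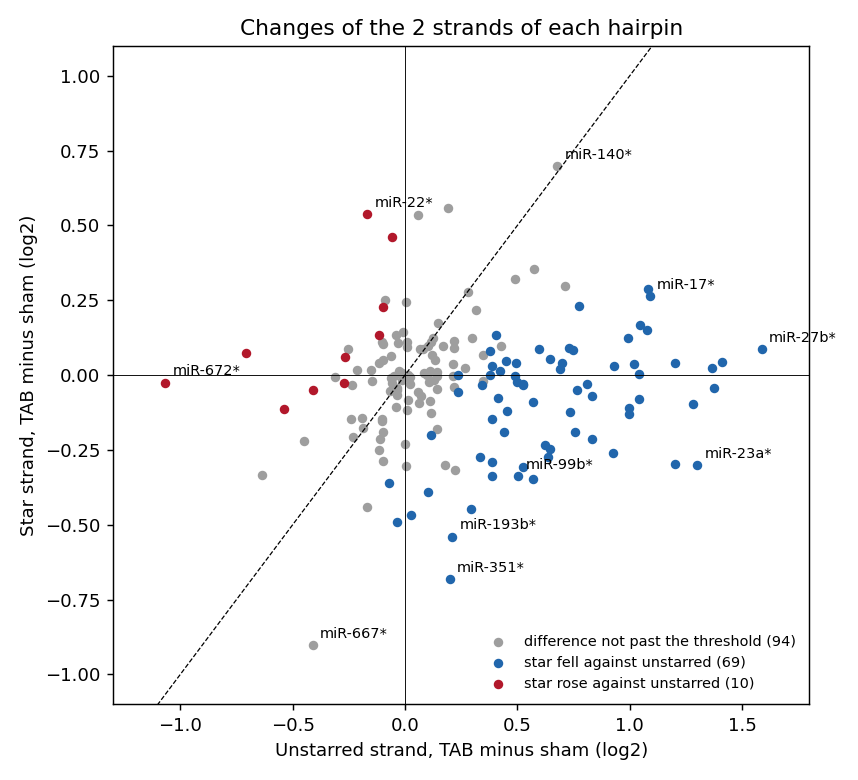
TAB minus sham difference of the unstarred strand (horizontal, log2) and of the star strand (vertical, log2) for 173 hairpins, with the line of equal change dashed. The 69 blue points, whose star strand fell against its partner, lie mostly at unstarred changes between 0.2 and 1.6 with star changes near 0, and the 10 red points lie above the line.

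The calls of the single strands were counted next. Of the 158 unstarred strands, 71 were raised and 14 lowered, with a median difference of 0.14 and quartiles of -0.04 and 0.50. Of the 194 star strands, 19 were raised (9.79%) and 32 lowered (16.5%), with a median of -0.01 and quartiles of -0.13 and 0.07. Over all 928 probes 19.3% were raised and 21.8% lowered, so both shares of the star strands lay under those of the whole array. Among the 49 star strands found on every array, 9 were raised and 14 lowered (18.4% and 28.6%). Both strands were raised in 12 hairpins and both lowered in 4 (miR-187, miR-383, miR-664, and miR-667), the star strand was lowered and its partner raised in 11, and the reverse occurred in none. Beside the lowered star strands, 11 partners were raised, 13 not called and 4 lowered. Beside the star strands that were not called, 55 partners were raised, 61 not called and 10 lowered. Across the 173 hairpins the changes of the 2 strands had a Pearson correlation of 0.10 (Spearman 0.09), and 0.21 (0.16) over the 33 found throughout. These points share arrays and are not independent.

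The families with the widest gaps were those whose unstarred strands rose together. For miR-23 and miR-27, which lie in paralogous clusters, the star strand fell against its partner in 4 of 4 hairpins, with a median of -1.43. The levels of miR-23a* on days 3, 5, 7, 14, and 28 were 8.08, 8.24, 8.10, 7.98, and 8.39 in sham and 7.98, 7.89, 7.93, 7.81, and 7.67 in TAB. The groups touched, since the highest TAB sample lay level with the sham day 14 sample, and the other sham samples were higher. Its partner miR-23a was at 10.30, 10.16, 10.18, 11.29, and 10.11 in sham and 11.26, 12.13, 11.58, 11.69, and 11.88 in TAB. All but the sham day 14 sample lay clearly below the TAB samples. The difference between the strands changed by -1.60 ± 0.29 (SE, 5 samples per surgery, adjusted p = 0.0050), with miR-23a up by 1.30 and miR-23a* at -0.30 (adjusted p = 0.054). MiR-27b, whose star strand was found on 2 sham and 2 TAB arrays, gave a fall of the star against the unstarred strand of -1.50 ± 0.18 (adjusted p = 0.0015).

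In the miR-15 family, cell cycle regulators that share a seed on the unstarred arm, 6 of 6 star strands fell against their partners (median -1.17) and none was called by itself. MiR-16-1* was at 7.56, 7.75, 7.70, 7.27, and 7.48 in sham over the 5 days, and at 7.40, 7.12, 7.26, 7.37, and 7.13 in TAB. The groups overlapped only through the sham day 14 sample. Its difference of -0.30 ± 0.11 missed the threshold (adjusted p = 0.071), whereas miR-16 rose by 1.20 and the gap changed by -1.50 ± 0.31 (adjusted p = 0.0076). MiR-195* differed by -0.10 (adjusted p = 0.60) next to a rise of 1.28 in miR-195. MiR-15a*, miR-15b*, miR-16-2*, and miR-322* fell against their partners by 0.67 to 1.18.

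The let-7 hairpins, whose unstarred strands repress growth and embryonic programmes, showed star strands of both directions. Of 8 kept, let-7c-1* and let-7g* were raised, let-7b* was lowered, and 5 were not called, while all 7 unstarred strands were raised (median 0.99). Against the partner, 7 of 8 star strands fell, but the fall of let-7c-1* was not called under any of the 4 other scalings (-0.31 to -0.26, adjusted p of 0.16 to 0.36). MiR-98* was found on no array, so the change of its gap (-1.42 ± 0.11, adjusted p = 0.00056, and -0.86 to -0.85 under the other scalings) restates the rise of miR-98. The let-7b* levels were 6.69, 6.52, 6.57, 6.52, and 6.54 in sham and 6.44, 6.42, 6.45, 6.36, and 6.22 in TAB. The averaged samples of the surgeries did not overlap, and let-7b* was found on all 10 sham arrays and on none of the TAB arrays. Its fall was -0.19 ± 0.05 (adjusted p = 0.023), at least 1.12-fold on this scale with the TAB arrays raised to their lowest found probe. With scaling to the 75th percentile the difference turned to 0.25 and passed as a rise (adjusted p = 0.040), and without day 3, 7 or 28 or without the second arrays its adjusted p was 0.054 to 0.11. Of the other star strands with its seed, let-7f-1* differed by -0.08 and miR-98* by -0.04, and neither passed the threshold.

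The miR-17 cluster and its paralogs, promoters of proliferation, had 12 kept star strands, all of which fell against their partners (median -0.62). By themselves miR-17*, miR-19a*, and miR-20a* were raised, miR-18b* was lowered, and 8 were not called, next to 10 raised of 11 unstarred strands. MiR-17* was at 6.70, 6.67, 6.68, 6.81, and 6.69 in sham and at 7.06, 7.06, 6.93, 6.91, and 6.91 in TAB. Every TAB sample lay above every sham sample. The rise was 0.26 ± 0.05 (adjusted p = 0.012) beside 1.09 in miR-17, and the gap of -0.82 ± 0.08 (adjusted p = 0.00088) was called under all 16 alternatives. Without scaling the miR-17* difference itself was -0.08. MiR-20a* was found on no array, and miR-19a* on 2 TAB arrays, so their rises of 0.17 and 0.13 stand near the background. The paralogs miR-106a* and miR-20b*, with the same seed as miR-17*, differed by 0.03 and 0.04 and were not called.

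Smaller families had fewer kept members. In the miR-29 hairpins, whose unstarred strands target collagen mRNAs, 3 of 4 star strands fell against the partner. MiR-29b-1* was also lowered by itself (-0.21 ± 0.05, adjusted p = 0.023), a call that was lost without day 5, 7, 14 or 28 or the second arrays (0.051 to 0.078). The 2 kept miR-26 star strands, from introns of phosphatase genes and with a common seed, were called in opposite directions. MiR-26b* was at 6.41, 6.44, 6.36, 6.50, and 6.40 in sham and 6.56, 6.76, 6.70, 6.78, and 6.73 in TAB, without overlap. MiR-26a-2* was at 6.82, 6.78, 6.80, 6.78, and 6.68 in sham and 6.39, 6.57, 6.44, 6.69, and 6.40 in TAB. Its TAB day 14 sample reached the lowest sham sample, and the other TAB samples were below all sham samples. The differences were 0.29 ± 0.04 for miR-26b* (adjusted p = 0.0051) and -0.27 ± 0.06 for miR-26a-2* (adjusted p = 0.015), and both fell against partners that rose. The miR-26b* gap of -0.79 shrank to -0.30 to -0.28 and was not called under the 4 other scalings (adjusted p of 0.17 to 0.20), and its rise was 0.04 without scaling and with a quantile target per surgery (adjusted p of 0.63 and 0.35). Arrays that found miR-26b* numbered 3 in sham and 4 in TAB, against 10 and 2 for miR-26a-2*, and the miR-26a-2* difference turned to 0.11 with scaling to the 75th percentile and missed the threshold without day 7 or the second arrays (adjusted p of 0.054 and 0.050). In the miR-99/100 group, 3 of 3 star strands fell against the partner, in the miR-103 group 2 of 2, among the miR-181 hairpins 2 of 6, and for miR-101a and miR-101b 1 of 2.

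A total of 11 hairpins had a lowered star strand and a raised unstarred strand, each called by itself. They were let-7b, miR-26a, miR-29b, miR-34c, miR-99b, miR-193b, miR-204, miR-351, miR-668, and miR-194 with both of its star strands. For miR-26a, miR-29b, and miR-194 the unstarred strand comes from copies on different chromosomes. Of all 158 unstarred strands 44.9% were raised, so a raised partner was common. Whether 11 exceeds the number that unrelated strands would give was not tested. MiR-351 belongs to the X-linked cluster of miR-322. The miR-351* levels were 8.27, 8.42, 8.41, 8.22, and 8.52 in sham, and 7.65, 7.65, 8.04, 7.46, and 7.64 in TAB. All 5 TAB samples lay below all sham samples. The fall was -0.68 ± 0.08 (adjusted p = 0.0030), and it held under each of the 4 other scalings and all 16 alternatives. MiR-351 went the other way, from 6.90, 6.93, 6.89, 7.03, and 6.79 to 7.20, 7.12, 6.99, 7.12, and 7.11. Its rise of 0.20 (adjusted p = 0.026) left the sham day 14 sample inside the TAB range, and the gap changed by -0.88 ± 0.11 (adjusted p = 0.0017).

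MiR-193b*, from a hairpin known in muscle and fat cell differentiation, had the smallest error among the large changes. It was at 7.83, 7.75, 7.85, 7.70, and 7.85 in sham and 7.31, 7.19, 7.27, 7.18, and 7.34 in TAB. The gap between the groups was wider than the spread within either, and each of the 5 days passed its own test. The fall was -0.54 ± 0.03 (adjusted p = 0.00070) and was also called under all 16 alternatives, while miR-193b rose by 0.21 (adjusted p = 0.035). MiR-204*, from an intron of Trpm3, was at 7.57, 7.68, 7.81, 8.11, and 8.02 in sham and 7.37, 7.48, 7.35, 7.35, and 7.41 in TAB. The sham samples were higher on days 14 and 28, whereas the TAB samples stayed level. Its fall was -0.45 ± 0.10 (adjusted p = 0.015), with a rise of 0.29 in miR-204 (adjusted p = 0.0044), and its adjusted p was 0.052 to 0.078 without day 7, day 28 or the first arrays.

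MiR-99b* was at 7.33, 7.28, 7.48, 7.29, and 7.38 in sham and 6.90, 6.95, 7.03, 7.21, and 6.99 in TAB, with no overlap of these averages. Single arrays overlapped on day 14, at 7.25 and 7.17 in TAB and 7.13 and 7.45 in sham. MiR-99b* fell by 0.34 while miR-99b rose by 0.50, and without the second arrays its fall had an adjusted p of 0.092. MiR-668*, of the imprinted Dlk1-Dio3 cluster on chromosome 12, fell by 0.35 (adjusted p = 0.010) beside a rise of 0.57 in miR-668, and it was found on 10 sham but 3 TAB arrays. Some repeated arrays of miR-668 differed by more than its rise. They were at 9.12 and 10.24 in TAB on day 3, and at 8.60 and 9.62 in sham on day 7. The star strands of both miR-194 copies fell, miR-194-2* by 0.34 and miR-194-1* by 0.29, the latter at least 1.12-fold because no TAB array found it. The difference of miR-194-1* turned to 0.17, that of miR-29b-1* to 0.11 and that of miR-34c* to 0.03 with scaling to the 75th percentile, whereas miR-193b* and miR-351* stayed called in all 4 other scalings. At the 75th percentile miR-99b* was -0.08 (adjusted p = 0.48), miR-194-2* -0.05 (0.67), miR-204* -0.24 (0.082), and miR-668* -0.0050 (0.97), none of them called, and the gap of miR-668* went from -0.92 to -0.47 (0.064). The fall of miR-34c* (-0.27) was also not called without day 3, 5, 14 or 28 or either set of arrays (0.059 to 0.12).

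**Figure D3:**
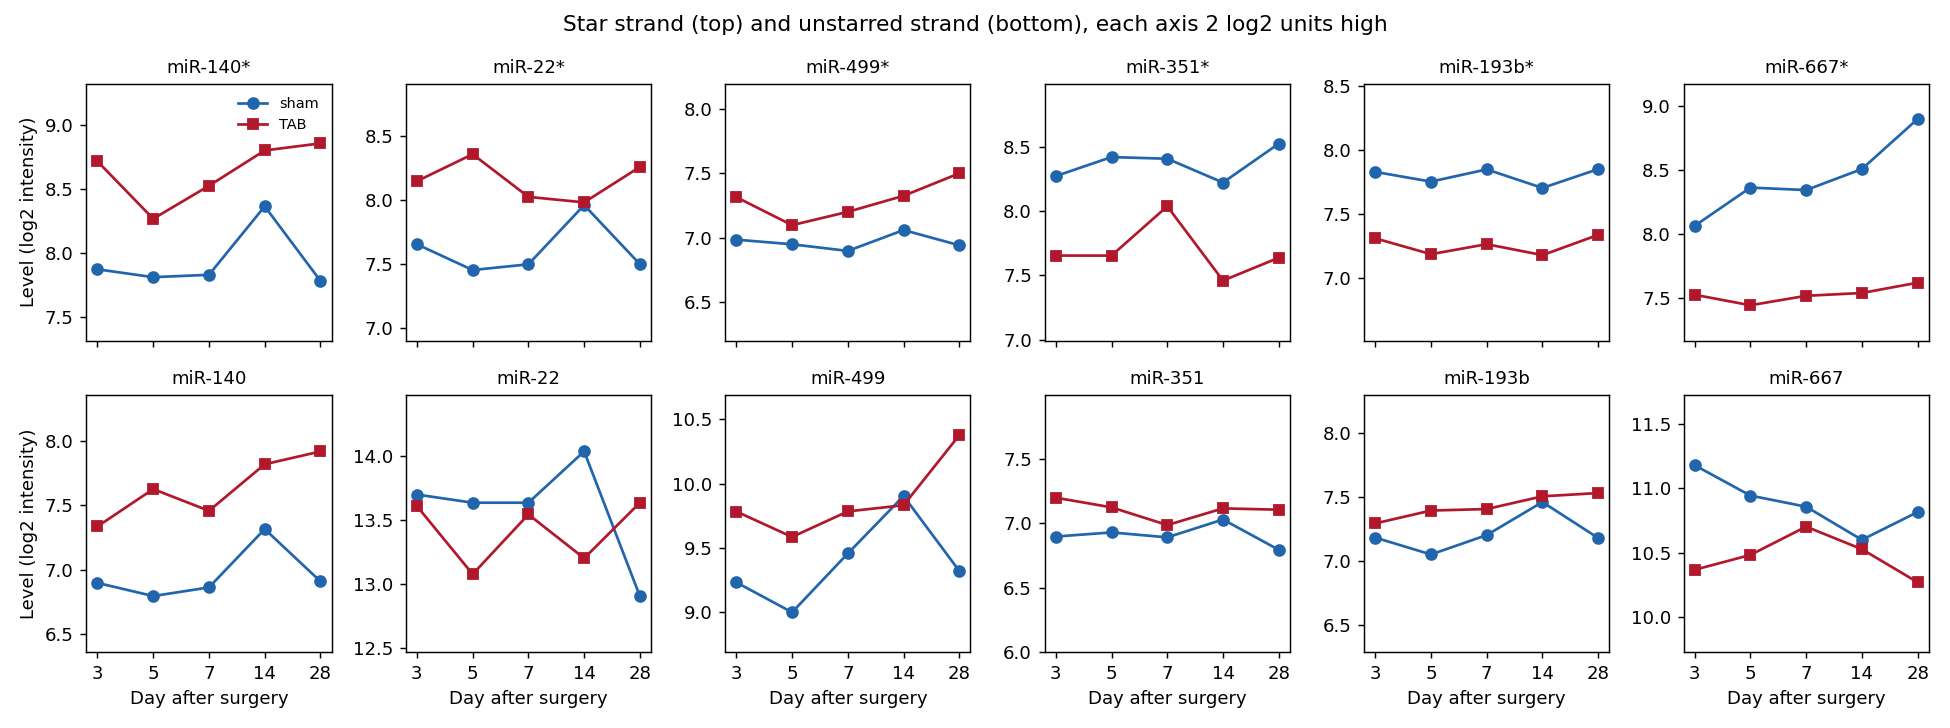
Level in each averaged sample (log2 intensity, vertical) against day after surgery (horizontal, not to scale) in sham (blue circles) and TAB (red squares), with star strands above and their unstarred strands below. Star strands miR-140*, miR-22*, and miR-499* lie higher in TAB on all 5 days, and miR-351*, miR-193b*, and miR-667* lower, whereas miR-351 and miR-193b below them lie higher in TAB.

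MiR-140* had the largest rise of all star strands, from a hairpin in an intron of Wwp2 best known in cartilage. Its levels were 7.87, 7.81, 7.83, 8.36, and 7.78 in sham and 8.71, 8.27, 8.52, 8.80, and 8.85 in TAB. The sham day 14 sample stood above the other sham samples and overlapped the lowest TAB sample. The rise was 0.70 ± 0.10 (adjusted p = 0.0051), or 1.62-fold, but it shrank to 0.10 and was not called without scaling (adjusted p = 0.56) or with a quantile target per surgery (0.44). MiR-140 rose by 0.68 (adjusted p = 0.0046), so the strands moved together, with a change of the gap of 0.02 ± 0.12 (adjusted p = 0.93).

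MiR-22* rose without its partner. The miR-22 hairpin is abundant in heart muscle and known from studies of hypertrophy. The star strand was at 7.65, 7.45, 7.50, 7.96, and 7.50 in sham and 8.15, 8.36, 8.02, 7.98, and 8.26 in TAB. On day 14 the 2 samples nearly coincided, and on each other day TAB was higher by at least 0.49. The rise was 0.54 ± 0.13 (adjusted p = 0.020), while miR-22 was at -0.17 (adjusted p = 0.57), among the brightest probes of the array, with samples from 12.91 to 14.03 in sham and from 13.08 to 13.63 in TAB. The gap changed by 0.71 ± 0.19 (adjusted p = 0.021) and was positive on all 5 days. Leaving out day 3, 5, 7 or 28 moved the adjusted p of the rise to 0.055 to 0.065, and leaving out day 3, day 7 or the second arrays moved that of the gap to 0.051 to 0.069. Without any scaling the miR-22* difference was -0.01, and the gap kept its sign.

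MiR-499*, from an intron of the myosin gene Myh7b, was the only raised member of 4 kept muscle star strands. It was at 6.98, 6.95, 6.90, 7.06, and 6.94 in sham and 7.32, 7.10, 7.20, 7.33, and 7.50 in TAB. Every TAB sample lay above every sham sample. The rise of 0.32 ± 0.06 (adjusted p = 0.012) went with one of 0.49 in miR-499 (adjusted p = 0.048), and without scaling it was -0.05. MiR-133a* (0.00 ± 0.22) and miR-1a-1* (0.01 ± 0.04) were not called, nor were their unstarred strands.

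Several other star strands were also raised. MiR-677* (0.56 ± 0.14), miR-326* (0.46 ± 0.13), and miR-652* (0.35 ± 0.11) were found on all arrays, and the unstarred strand rose as well for miR-677 and miR-652. MiR-326* rose against its partner by 0.52 ± 0.14 (adjusted p = 0.020), but the adjusted p was 0.057 to 0.066 without day 3, 5 or 7, and the gap was 0.18 to 0.19 and not called under the 4 other scalings (0.25 to 0.30). The rises of miR-326* and miR-652* also lost their calls when single days were left out (adjusted p of 0.059 to 0.14). Without scaling miR-652* turned to -0.33 and passed as lowered (adjusted p = 0.013), as it did with a quantile target per surgery (-0.34, 0.030), and miR-326* turned to -0.21 and -0.19. MiR-301b* rose by 0.28, like miR-301b (0.28). MiR-302d*, from a hairpin of pluripotent cells, rose by 0.23 ± 0.04 beside -0.10 in miR-302d, and 6 sham and 9 TAB arrays detected it. Its gap rose by 0.32 ± 0.08 (adjusted p = 0.014), and without the second arrays neither its rise (0.087) nor that of the gap (0.11) was called. The gap was also not called without day 3 (0.057) or day 7 (0.053), nor under the 4 other scalings, where it was 0.18 to 0.19 (0.079 to 0.10). MiR-31* and miR-155* were found on no sham array and 1 TAB array each, so their rises of 0.22 and 0.17 lay near the background. No minimum fold follows, because they were almost undetected after TAB as well. Without scaling these rises were 0.04 and 0.02 (adjusted p = 0.63 and 0.77). That of miR-155* also missed the threshold without day 3, 5 or 28 (0.054 to 0.062). Of the 19 raised star strands, miR-140*, miR-155*, miR-20a*, miR-26b*, miR-301b*, and miR-31* kept a positive sign under all 4 other scalings, and none was called in all 4.

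The deepest falls were those of miR-667* and miR-32*. MiR-667*, of the Dlk1-Dio3 cluster, was at 8.06, 8.36, 8.34, 8.51, and 8.90 in sham and 7.53, 7.45, 7.52, 7.54, and 7.62 in TAB. The TAB samples lay close together, and the distance to sham was widest on day 28. Its fall was -0.90 ± 0.10 (adjusted p = 0.0028), with -0.41 in miR-667 (adjusted p = 0.034). MiR-32* was at 9.03, 9.06, 9.31, 8.69, and 8.98 in sham and 8.07, 8.15, 7.91, 8.48, and 8.06 in TAB. The averaged samples did not overlap. Day 14 showed the smallest distance, and there single arrays overlapped, at 8.61 and 8.34 in TAB and 8.83 and 8.54 in sham. The fall was -0.88 ± 0.16 (adjusted p = 0.0096), and miR-32 itself had only negative flags.

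MiR-7b* and miR-7a-2*, which share a seed, fell alike, by 0.50 ± 0.09 (adjusted p = 0.0082) and 0.49 ± 0.06 (adjusted p = 0.0034). MiR-7b* was at 8.29, 8.12, 8.10, 8.51, and 8.01 in sham and 7.64, 7.90, 7.76, 7.74, and 7.46 in TAB. No averaged TAB sample reached an averaged sham sample. Single arrays overlapped, with TAB day 5 at 7.46 and 8.34 and sham day 28 at 8.07 and 7.95. Without the first arrays the adjusted p of miR-7b* was 0.080. Because the sequences are alike, label from either strand could bind both probes, and this was not tested. The remaining miR-7 star strand, miR-7a-1*, was found on 2 sham arrays and differed by -0.05. MiR-294* (-0.44 ± 0.06) and miR-196b* (-0.36 ± 0.04) completed the 10 largest falls alike on all 5 days. Of the 32 lowered star strands, 7 were called under all 4 other scalings, namely miR-18b*, miR-32*, miR-193b*, miR-351*, miR-664*, miR-667*, and miR-7b*, while 15 kept their sign. MiR-18b* lost its call without day 3, 5, 7 or 28 or the second arrays (0.065 to 0.090).

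**Figure D4:**
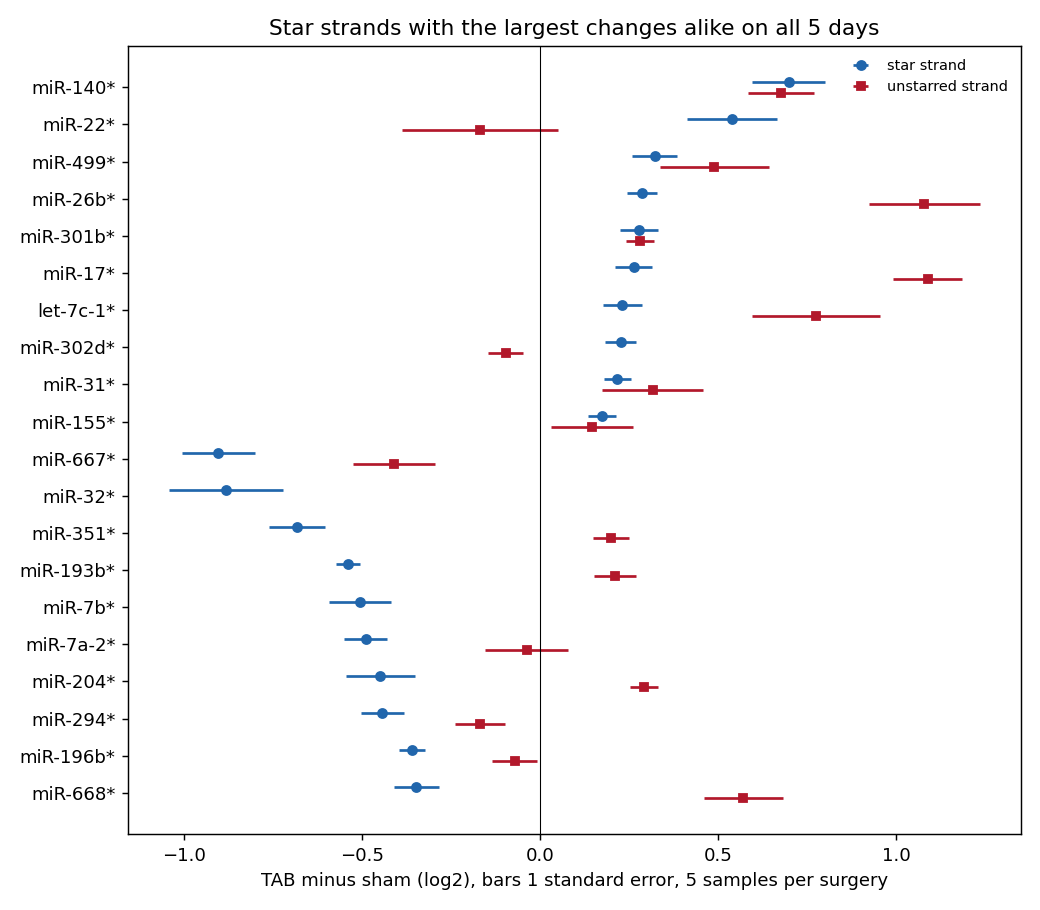
TAB minus sham difference (log2, horizontal) of the 10 raised and 10 lowered star strands with the largest changes alike on all 5 days (blue circles), each with its unstarred strand where kept (red squares), and bars of 1 standard error. The star strand of miR-140 lies beside its partner at 0.70 and 0.68, whereas miR-351*, miR-193b*, miR-204*, and miR-668* lie on the opposite side of 0 from theirs.

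Other star strands rose against a partner that fell. MiR-672, an X-linked miRNA, fell by 1.07 (adjusted p = 0.0033) beside -0.03 in miR-672*, a change of the gap of 1.04 ± 0.13 (adjusted p = 0.0017) that was 1.59 at the 75th percentile and without scaling, and miR-672* was found on 3 sham and no TAB arrays. MiR-670* was found on no array, so its gap only restates the fall of miR-670 by 0.71 (adjusted p = 0.015). MiR-483, from an intron of Igf2, fell by 0.54 while miR-483* was at -0.11 (adjusted p = 0.57), and the gap changed by 0.42 ± 0.13 (adjusted p = 0.038, and 0.64 under the other scalings, but with an adjusted p of 0.067 to 0.11 without day 5, 14 or 28 or either set of arrays). The remaining rises were those of miR-190b*, miR-325*, miR-433*, and miR-485*, between 0.24 and 0.36, where the partner of miR-433* missed the threshold by itself (-0.12, adjusted p = 0.065).

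The Dlk1-Dio3 cluster, a large imprinted group of miRNAs, had 24 kept star strands, of which 1 was raised, 6 lowered, and 17 not called (median 0.00). Only miR-665*, miR-667*, miR-668*, and miR-485* were found on more than 10 arrays, and a single one on all 20. MiR-494* (-0.23), miR-329* (-0.18), miR-410* (-0.19), and miR-758* (-0.16) were the other lowered ones. Of the 4 kept star strands of vessel wall hairpins none was called, and miR-221* and miR-222* fell against partners that rose. Among 4 of white blood cells, miR-155* was raised and miR-150* lowered (-0.23 ± 0.07), while miR-146a*, found on no array, differed by 0.02 beside a rise of 0.69 in miR-146a. Among 10 of brain, 16 of epithelium and pancreas, and 7 of the miR-344 family, 0, 1, and 0 were raised and 2, 2, and 1 lowered.

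Detection gave a further view. An array detected 60 to 95 star strands after TAB and 80 to 115 after sham surgery. A total of 78 star strands were found on more sham than TAB arrays, 13 on more TAB arrays, and 103 on equal numbers. A total of 13 were found on at least 8 sham arrays and at most 2 TAB arrays, and none the other way round. Among these, miR-598* (9 sham arrays, 0 TAB arrays) fell by 0.21 or at least 1.14-fold, miR-329* (8 and 0) by 0.18 or at least 1.11-fold, and miR-187* (10 and 1) by 0.15. The others were let-7b*, miR-25*, miR-26a-2*, miR-103-2*, miR-194-1*, miR-196b*, miR-374*, miR-383*, miR-494*, and miR-758*. MiR-25*, miR-103-2*, and miR-374* did not pass the test of level, and miR-329* and miR-598* no longer passed without day 3, day 7 or 1 set of arrays (adjusted p of 0.053 to 0.063). MiR-187* lost the call with any single day or the second arrays left out (0.051 to 0.11). MiR-383* and miR-758* lost the call with any single day or either set of arrays left out (0.052 to 0.32), and miR-494* without day 3, 7 or 28 or the second arrays (0.055 to 0.090). At the 75th percentile the direction of these falls turned, and miR-187* (0.24, adjusted p = 0.049), miR-329* (0.27, 0.026), and miR-758* (0.30, 0.019) passed as rises, while miR-598* was at 0.19 (0.088). Also passing as rises there were let-7b* (0.25, 0.040), miR-25* (0.32, 0.018), miR-103-2* (0.28, 0.019), and miR-374* (0.33, 0.0071). The TAB arrays were also the dimmer ones (75th percentile of 180 to 288 against 303 to 444), and the part of that dimness in these counts was not tested. The same counts are not given for all mouse probes tested, so they cannot be read as particular to star strands.

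Each day was also tested by itself on its arrays, with the spread between repeated arrays as its error, which speaks only for the RNA hybridized that day. On day 3, 18 star strands were raised and 25 lowered, against 17.7% and 17.8% of all probes. On day 5 the counts were 23 and 25 (all probes 19.1% and 20.5%), on day 7 they were 15 and 24 (17.6% and 16.2%), on day 14 they were 12 and 30 (12.3% and 14.3%), and on day 28 they were 10 and 31 (18.1% and 23.2%). As shares of the 194 star strands, 5.15% to 11.9% were raised and 12.4% to 16% lowered, with only the lowered share of day 14 above that of all probes. MiR-193b*, miR-194-2*, miR-294*, and miR-667* were lowered on all 5 days, none was raised on all 5, and 93 were called on no day.

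The extremes of each day came from few members. MiR-140* was highest on day 3 (0.84 ± 0.18) and day 28 (1.07 ± 0.18), let-7d* on day 5, miR-491* on day 7 (1.55 ± 0.16), and miR-483* on day 14 (0.55 ± 0.14). Without scaling the values of miR-140* were 0.10 on day 3 (adjusted p = 0.74) and 0.70 on day 28 (0.055), that of let-7d* on day 5 was 0.13 (0.53), and that of miR-483* on day 14 was 0.30 (0.15), none of them called. The lowest were miR-32* on days 3 and 7 (-1.40 ± 0.15) and miR-667* on days 5, 14, and 28 (-1.27 ± 0.13). MiR-491* was at 8.91 in TAB and 7.36 in sham on day 7, but over the 5 days its difference of 0.54 ± 0.23 missed the threshold (adjusted p = 0.11). MiR-133a*, miR-195*, miR-346*, and miR-483* were called in opposite directions on different days. MiR-483* fell by 0.55 on day 3 and rose by as much on day 14, where the sham sample was at 7.48 against 8.06 to 8.29 on other days.

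The effect of TAB on days 14 and 28 was compared with that on days 3, 5, and 7. No star strand passed the threshold (lowest adjusted p = 0.70), and of all probes 0% did. Without adjustment 13 star strands and 58 of all probes had p under 0.05. The smallest p-values belonged to miR-18b* (late minus early 0.48 ± 0.17), miR-103-1* and miR-96* in the upward direction, and to miR-204* (-0.40 ± 0.12), miR-328*, and miR-652* downward. By the rule of the study's methods, a log2 ratio beyond 2 standard deviations on at least 1 day, 9 star strands (4.64%) were called, against 15.4% of all probes. They were miR-32*, miR-133a*, miR-140*, miR-204*, miR-351*, miR-375*, miR-491*, miR-667*, and miR-7b*. Only miR-491* on day 7 lay beyond 3 standard deviations.

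**Figure D5:**
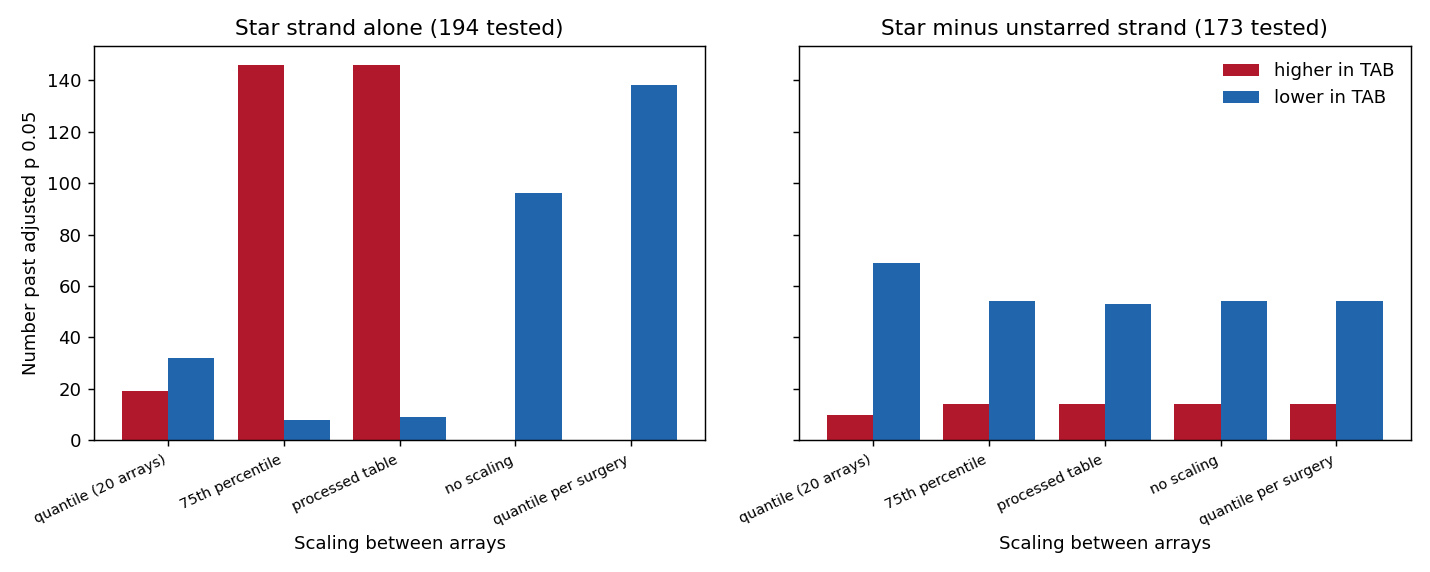
Number of star strands past an adjusted p of 0.05 (vertical) under 5 scalings of the arrays (horizontal), for the star strand alone (left, 194 tested) and for star minus unstarred strand (right, 173 tested), higher in TAB in red and lower in blue. Counts for the star strand alone run from 0 to 146 raised and from 8 to 138 lowered, whereas the difference between strands gave 10 to 14 rises and 53 to 69 falls.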

How the data were processed

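The authors labelled RNA with Cy5 and scanned it on miRNA arrays for mouse and rat (Phalanx OneArray). The deposited raw file holds the intensity of each spot, without background subtraction, with a flag per spot. The deposited processed table holds scaled intensity per miRNA and served as an alternative. Builds and probe sequences are not given in the sources used here, and 0 columns belonged to other samples.

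The 3 spots of a probe were combined by their median, probes with negative flags on all spots of all arrays were dropped, and log2 values were quantile-normalized over the 20 arrays. The 2 arrays of each surgery and day were averaged. TAB was compared with sham in limma 3.58.1 (R 4.3.3) with day as a block (4 residual degrees of freedom, 5 samples per surgery). The same fit was run on star minus unstarred log2 levels of 232 pairs. Its error is the variation of the difference between days. Single days were tested on the 20 arrays (10 residual degrees of freedom), and late against early days on the 5 differences (3 residual degrees of freedom). P-values were two-sided and adjusted by Benjamini-Hochberg over all 928 probes or 232 pairs, with a threshold of 0.05. A fold given as "at least" raises the undetected group, array by array, to the lowest found probe. Such a fold applies to the quantile-normalized levels only and is no lower limit under other scalings. The fits were tested on simulated data, drawn as independent normal values without a scaling step, so that test cannot speak to the choice of scaling. The number of arrays limits the precision, and p-values measure the spread between these samples.

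Members, lists and named miRNAs were chosen with earlier results of these data known. Named were up to 10 star strands per direction with the largest called changes alike on all 5 days, up to 5 hairpins per direction with the largest called gap, those found on at least 8 arrays of a surgery and at most 2 of the other, 3 per direction of late against early, the extremes of each day, and those called against their partner, each with its unstarred strand.

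Alternatives were other scalings, the processed table, normexp background correction, other filters, no day term, a replicate block, and leaving out a replicate or a day.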

Additional observations from a re-analysis of the deposited data

Results flagged for a closer look

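In the sham group, the day 14 sample stood apart from the other 4 for 3 star strands, with a gap over 0.71 of the group's range. MiR-140* was at 8.36 against 7.78 to 7.87 in the other sham samples, miR-17* at 6.81 against 6.67 to 6.70, and miR-483* at 7.48 against 8.06 to 8.29. Without day 14 the fits are among those given with a day left out. MiR-294* was at 7.40 in the sham day 28 sample against 7.12 to 7.14, and miR-668* at 6.71 in the TAB day 28 sample against 6.48 to 6.55. Chance flags about 1 in 20 groups of this size, and no cause was tested. MiR-96* was lower in TAB on days 3, 5, and 7 and higher on days 14 and 28, with a late minus early difference of 0.16 ± 0.07 (adjusted p = 0.70 by limma), and it was found on no array.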

How the results depend on the processing

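Scaling decided how many star strands were called by themselves. With scaling to the 75th percentile 146 were raised and 8 lowered, with the values processed by the authors, 146 and 9, without scaling 0 and 96, and with a quantile target per surgery 0 and 138. Of the calls made with quantile normalization, 18 of 19 raised and 7 of 32 lowered were also made at the 75th percentile, and 0 and 32 without scaling. The gap between the strands, which is the same under both by construction, kept 42 of 69 falls and 7 of 10 rises. With probes found on at least 10 arrays (80 star strands, 68 pairs), 9 were raised, and 3 gaps rose and 30 fell. Without a day term 33 were raised and 16 gaps rose.

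Fitted on 20 arrays with a replicate block, 41 star strands were raised, 52 lowered, and 26 gaps rose, and this fit counts repeated arrays as samples. The replicate numbers name technical arrays and gave no sign of pairing beyond a number, since the differences between the first and second arrays correlated at -0.26 to 0.33 between groups (median 0.07, 45 pairs of groups). Leaving out a replicate or a day gave 8 to 15 raised, 19 to 30 lowered, 4 to 14 rises, and 51 to 70 falls. On day 14 the averaged sham sample stood apart for some star strands. Without that day, 13 of the 19 raised and 24 of the 32 lowered star strands were still called.

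On single days the scaling to the 75th percentile gave 148 raised and 9 lowered on day 3, 144 and 7 on day 5, and 138 and 8 on day 7. It gave 17 raised and 9 lowered on day 14, and 92 raised and 14 lowered on day 28. Without scaling 0 were raised and 110 lowered on day 3, 0 and 123 on day 5, 1 and 119 on day 7, 1 and 53 on day 14, and 3 and 43 on day 28. Without single arrays the raised and lowered counts were 6 to 17 and 10 to 14 on day 3, 13 to 23 and 16 to 23 on day 5, 8 to 10 and 12 to 19 on day 7, 5 to 11 and 16 to 30 on day 14, and 7 to 8 and 14 to 21 on day 28. Beyond 2 standard deviations 5 star strands were called at the 75th percentile, and beyond 3 standard deviations 1.

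Signs turned for some single star strands. At the 75th percentile (and in the processed table) the differences were 0.020 (0.022) for miR-196b*, 0.25 (0.25) for let-7b*, 0.24 (0.24) for miR-187*, 0.17 (0.17) for miR-194-1*, 0.11 (0.11) for miR-26a-2*, 0.27 (0.28) for miR-329*, 0.18 (0.17) for miR-383*, 0.24 (0.23) for miR-494*, 0.19 (0.20) for miR-598*, 0.30 (0.30) for miR-758*, 0.11 (0.10) for miR-29b-1*, and 0.030 (0.029) for miR-34c*. Without scaling (and with a quantile target per surgery) they were -0.055 (-0.063) for miR-499*, -0.084 (-0.079) for miR-17*, -0.0091 (-0.00094) for let-7c-1*, -0.054 (-0.049) for miR-302d*, -0.21 (-0.19) for miR-326*, and -0.33 (-0.34) for miR-652*, and that of miR-22* was -0.012 without scaling. Late minus early turned to -0.038 for miR-103-1* and -0.17 for miR-96* at the 75th percentile, and to 0.091 for miR-652* without scaling. The cause was not tested.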
